A study of Xenopus laevis with 12 samples.

Results

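The libraries compared here were the 3 from Xenopus laevis foregut endoderm kept in 500 nM retinoic acid (RA) and the 3 kept in 25 nM RA, 6 of the 12 libraries of the series. They were chosen by the dose and replicate number in the column names of the deposited count table, and all 44478 gene IDs of that table were considered. The question was what a 20-fold higher dose adds to the response to the low dose. The 3 libraries in 0.1% DMSO vehicle give a baseline level, and the 3 libraries at 200 nM RA give a level between the doses. All explants came from wild-type embryos of the frog stock NXR_0031. The tissue was dissected at stage NF15 (Nieuwkoop-Faber staging) and then cultured at 15 °C over about 16 hours until stage NF25, with 8 explants pooled for each library. The labels do not say whether the RA groups also carried DMSO, nor do they link pools to clutches or days, so p-values measure only the spread between these pools.

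Retinoic acid is made from vitamin A and binds nuclear receptors that sit on DNA with a partner receptor and switch nearby genes on or off. It is one of the signals that tell cells their place along the head-to-tail axis, and in the endoderm it helps to set the borders between the organs of the foregut and the gut behind it. Cells that receive it also make enzymes that break it down, so a larger dose in the medium need not mean a proportionally larger dose in the cell. After an old genome duplication, Xenopus laevis often keeps both copies of a gene, and reads of such copies can be hard to tell apart.

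The count table names genes by ID alone. None of its IDs (0 of 44478) was found in RefSeq's genes for the assembly Xenopus_laevis_v10.1, so the IDs are described here as groups, without gene names, and the label foregut endoderm was not checked against marker genes. Lists of RA pathway, Hox, organ and cell type marker genes were not run for the same reason. In whole pools of tissue, fewer cells of a type and less RNA per cell cannot be told apart. Total counts were 21619433 to 39147729 at 500 nM and 24032151 to 27961047 at 25 nM.

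At 500 nM RA, 4152 of the 24454 IDs tested (17%) differed from 25 nM at an adjusted p under 0.05 in edgeR's quasi-likelihood test. Of these, 2164 were higher (8.85% of IDs tested) and 1988 were lower (8.13%). The differences were mostly small: the median log2 fold change was 0.40 among the higher IDs and -0.36 among the lower ones, and over all IDs tested it was 0.00 with a median standard error (SE) of 0.13. All 3 libraries at 500 nM lay above all 3 at 25 nM for 1997 of the higher IDs, and below them for 1913 of the lower IDs. Over all IDs tested, 15.6% and 15.5% had such separate groups in the 2 directions. A test against a change of 1.2-fold (glmTreat in edgeR) called 1172 IDs.

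Differences of at least 2-fold were found for 820 IDs (3.35% of IDs tested). There were 490 IDs higher at 500 nM (2% of IDs tested) and 330 lower (1.35%). At least 8-fold differences were 157 higher (0.642%) and 11 lower (0.045%), so that IDs higher at 500 nM made up 59.8% of the differences of at least 2-fold and 93.5% of those of at least 8-fold. For 46 of the 157 IDs no library at 25 nM had a count. For these the data give only a lower bound of the fold, and the fitted fold can lie above that bound. With the bound set by 3 counts over the group, 119 IDs were at least 8-fold higher, and the median log2 fold change of the 490 IDs was 1.90 in place of 1.99. The filter on low counts read all 12 libraries, so it let in IDs with low counts at 500 and 25 nM. In those 6 libraries alone, 323 of the 490 higher and 304 of the 330 lower IDs pass it. At 8-fold, 43 of the 157 and 5 of the 11 pass. At 2-fold the excess of higher IDs did not hold with 500 nM replicate 2 alone, the 1 library fitted alone, as shown further on. At 2-fold the excess was also absent in limma on TPM. With log2(TPM + 1), 51 IDs were at least 2-fold higher and 106 lower, and with log2(TPM + 0.1), 185 and 252. After TMM scaling of TPM, log2(TPM + 1) gave 59 and 98. Why the direction differed was not tested.

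**Figure D1:**
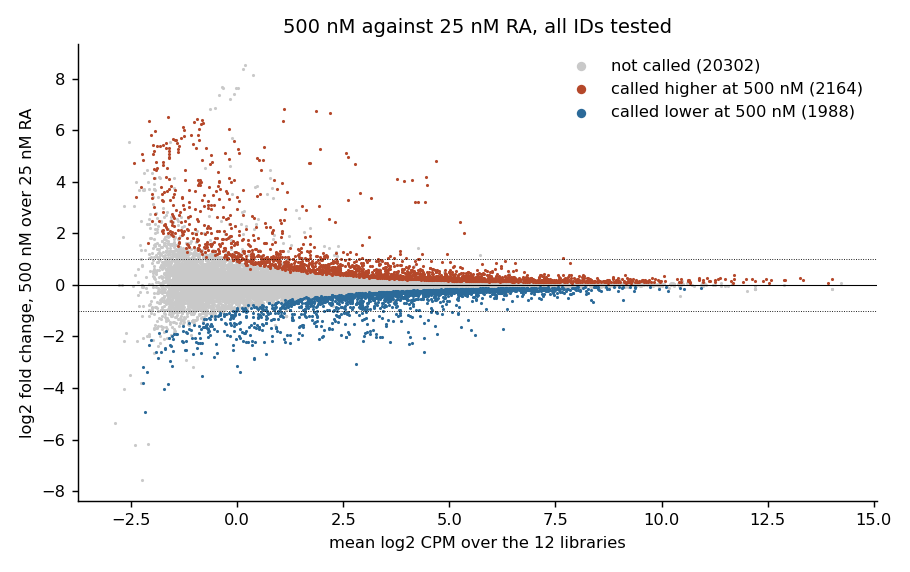
Log2 fold change of 500 nM over 25 nM RA (vertical axis) against the mean log2 CPM over all 12 libraries (horizontal axis), 1 point per ID tested. The 2164 IDs called higher and 1988 called lower are coloured, the dotted lines mark a 2-fold change, and differences of at least 2-fold lie mostly among IDs with low counts.

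How often an ID was called depended on its level in CPM (the count relative to library size after TMM scaling, on a scale shared by all libraries). Ranked by mean level over the 12 libraries, the IDs were divided into 4 parts of 6113 or 6114. In the part with the highest levels, 27.5% were called, and the median size of a called difference was 0.20 on the log2 scale. In the part with the lowest levels 10.2% were called, with a median size of 1.74. The median SE was 0.05 in the highest part and 0.44 in the lowest, so small differences could be called only among well counted IDs. Of the 490 IDs at least 2-fold higher, 363 lay in the lowest part and 5 in the highest.

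IDs with at least 2-fold differences therefore made up little of the RNA. The 490 higher IDs together held 0.21%, 0.211% and 0.21% of normalised counts in the libraries at 500 nM, against 0.0622%, 0.0657% and 0.0645% at 25 nM. In the DMSO libraries they held 0.197% to 0.203%. The 330 lower IDs held 0.0844%, 0.0635% and 0.0779% at 500 nM, against 0.217%, 0.23% and 0.223% at 25 nM and 0.256% to 0.263% in DMSO. The groups of 500 and 25 nM libraries did not overlap in either sum, which the choice of these IDs favours.

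The 2164 IDs called higher, most of them by little, held more of the RNA. Their share was 33% to 34.6% of normalised counts at 500 nM and 29.3% to 29.5% at 25 nM. The 10 IDs with the largest gain accounted for 29.3% of the rise in this sum. Over all IDs tested 8.85% were called higher and 8.13% lower. In the part with the highest levels it was 891 and 788 of 6114 IDs. Among the 257 IDs with a mean of at least 500 CPM, a limit set after seeing the data, 97 (37.7%) were called higher and 16 lower. Their median log2 fold change was 0.05 with TMM scaling, 0.02 with total-count scaling, where 149 of the 257 were higher, and -0.01 in unscaled TPM, where 125 were higher. TPM differs from the other 2 in its measure as well as in its scaling.

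Each ID called between the doses was then placed by its level in DMSO. The calls told the following kinds apart: IDs that 25 nM had already moved and that moved on in the same direction at 500 nM, IDs that 25 nM had moved and that moved back, and IDs that 25 nM had not been called to move but that differed at 500 nM from both 25 nM and DMSO. The 2 steps share the 25 nM libraries, and chance deviations of those libraries push the steps in opposite directions. The 25 and 500 nM comparisons with DMSO share the DMSO libraries. The counts are therefore descriptions, with no test of their own.

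Of the 4797 IDs higher at 25 nM than in DMSO (19.6% of IDs tested), 842 were higher again at 500 nM, 431 were lower at 500 than at 25 nM, and 3524 (73.5%) were not called between the doses. Of the 4974 IDs lower at 25 nM than in DMSO (20.3%), 812 were lower again at 500 nM, 611 were higher at 500 than at 25 nM, and 3551 (71.4%) were not called. For most IDs that responded to 25 nM RA, no further difference was detected at 500 nM. A call that was missed does not show that the level stayed the same.

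The steps that continued were small. For the 842 IDs the median log2 fold change was 0.47 at 25 nM against DMSO and 0.25 at 500 nM against 25 nM. For the 812 IDs the medians were -0.37 and -0.31. Such IDs were well counted, with a median level of 40.8 and 31.7 CPM, against 6.97 CPM over all IDs tested. In the 842 IDs the library medians at 500 nM were 0.23, 0.29 and 0.24 above the 25 nM mean on the log2 scale, and at 200 nM they were -0.05, -0.05 and -0.04, so the 200 nM level did not lie between the other 2 doses.

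IDs not called at 25 nM against DMSO, but called at 500 nM against both 25 nM and DMSO, numbered 519 higher and 580 lower. For the 519 IDs the median log2 fold change was 0.02 at 25 nM against DMSO, 0.48 at 500 nM against 25 nM, and 0.50 at 500 nM against DMSO. For the 580 IDs the same medians were -0.04, -0.39 and -0.45. At 200 nM the library medians of the 519 IDs were 0.09, 0.08 and 0.07 over the 25 nM mean, and those of the 580 IDs were -0.11, -0.12 and -0.09. In 500 nM RA against DMSO, 22.3% of IDs tested were called higher and 22.6% lower.

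Among at least 2-fold differences the picture by DMSO level was another one. Of the 490 IDs higher at 500 than at 25 nM, 316 (64.5%) had been called lower at 25 nM than in DMSO, 101 had not been called at 25 nM but were above DMSO at 500 nM, and 18 had already been called higher at 25 nM. The remaining 55 were not called against DMSO at either dose. Thus most of the large rises with all libraries were in IDs that were low at 25 nM, and few were in IDs that 25 nM RA had raised. The count and share moved with the libraries and the filter. Without replicate 1 of 500 nM, 209 of 385 IDs (54.3%) had been lower at 25 nM than in DMSO, and with replicate 2 as the only library at 500 nM, 134 of 280 (47.9%). Among the 323 IDs that pass the filter on low counts in the 6 libraries at 500 and 25 nM alone it was 168 (52.0%).

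For the 316 IDs the median log2 fold change was -3.26 at 25 nM against DMSO, 2.69 at 500 nM against 25 nM (2.37 with IDs lacking counts at 25 nM at their bound) and -0.52 at 500 nM against DMSO. At 500 nM, 164 of them were not called against DMSO, 125 were lower than DMSO and 27 were higher. The library medians over the 25 nM mean were 2.59, 2.53 and 2.54 in DMSO, 3.05, 3.05 and 2.61 at 200 nM, and 2.15, 1.02 and 1.94 at 500 nM. The 25 nM libraries were lowest, as the definition of these IDs sets against DMSO and 500 nM, and replicate 2 at 500 nM lay below the other 2 libraries of its group.

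The 101 IDs not called at 25 nM but above DMSO at 500 nM had library medians of 1.12, 1.36 and 1.24 at 500 nM over the 25 nM mean. In DMSO the medians were 0.19, 0.06 and 0.20, and at 200 nM they were 0.44, 0.37 and 0.29. That the 500 nM medians stood above those of 25 nM and DMSO follows from how these IDs were defined. The 200 nM medians lay below the 500 nM ones. The definition did not use the 200 nM libraries, but a choice of high values at 500 nM favours this gap as well. The 18 IDs that continued a rise had medians of 1.13, 1.3 and 1.14 at 500 nM, and -1.31, -1.92 and -1.60 in DMSO.

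The 330 IDs at least 2-fold lower at 500 nM were split more evenly. Of these, 114 had been called higher at 25 nM than in DMSO and 102 had been called lower. A further 94 had not been called at 25 nM but were below DMSO at 500 nM, and 20 were called against DMSO at neither dose. Over all IDs tested, 19.6% were called higher and 20.3% lower at 25 nM than in DMSO. For the 114 IDs the median log2 fold change was 1.22 at 25 nM against DMSO and -1.75 at 500 nM against 25 nM, and at 500 nM 67 of them were not called against DMSO and 41 were below it. For the 102 IDs the medians were -1.21 and -1.43. The choice of these IDs sets the second step to at least 2-fold, so the like size of the 2 steps is partly its result. Among all 812 IDs that continued a fall, the medians were -0.37 and -0.31. The library medians of the 102 IDs at 500 nM were -1.22, -1.74 and -1.23 over the 25 nM mean, while those at 200 nM were -0.09, -0.07 and -0.10.

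**Figure D2:**
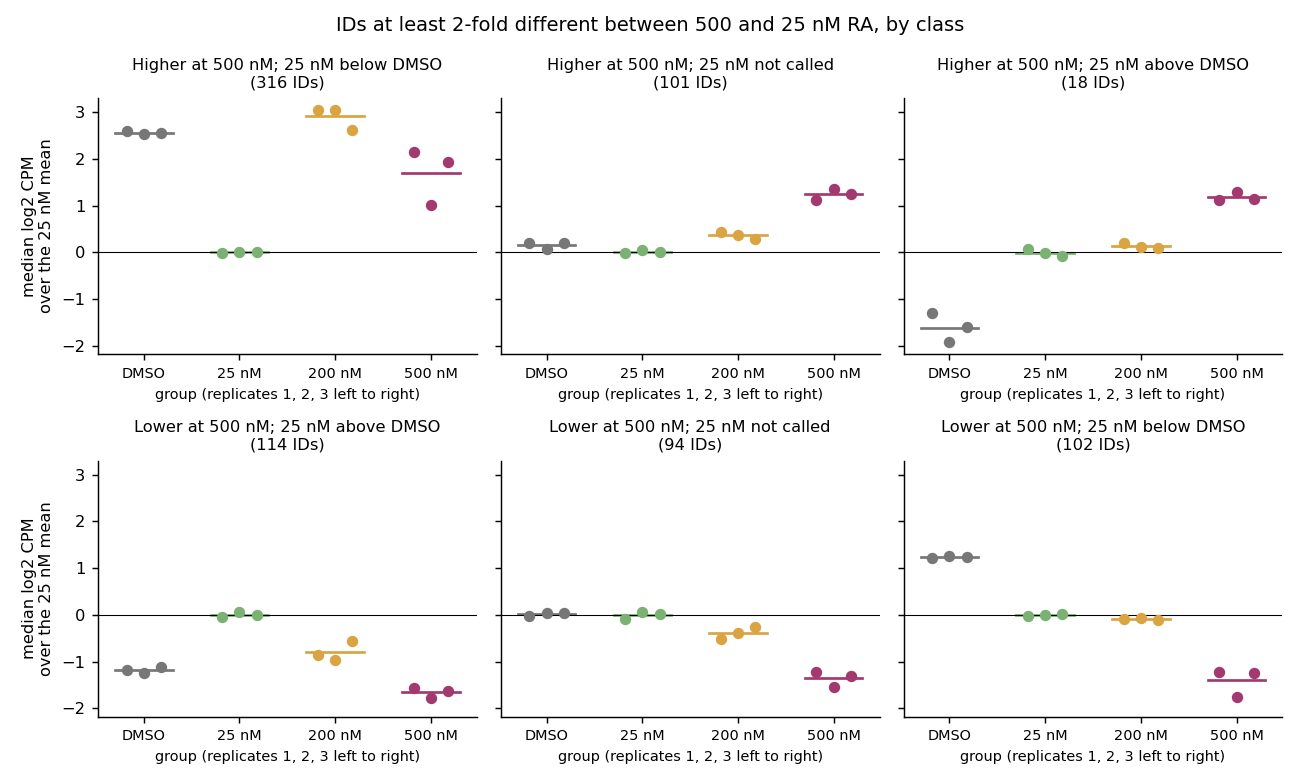
Median log2 CPM over the mean of the 25 nM libraries (vertical axis) in each of the 12 libraries, by group (horizontal axis), for the IDs at least 2-fold different between 500 and 25 nM RA. Each point is a library and each line a group mean. The 55 higher and 20 lower IDs called against DMSO at neither dose are not shown. In the 316 IDs that were low at 25 nM the DMSO and 200 nM libraries are high and 500 nM replicate 2 is the lowest of its group.

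The place of the 200 nM and DMSO libraries depended on the filter on low counts, which read all 12 libraries and so let in IDs with low counts at 500 and 25 nM that were high in another group. The mean at 200 nM lay between the means of 25 and 500 nM for 266 of the 330 lower IDs (80.6%), but for only 235 of the 490 higher IDs (48.0%). In 218 of the higher IDs it lay above the 500 nM mean, and in 37 below the 25 nM mean. The DMSO mean lay above the 500 nM mean for 227 of the higher IDs, between the doses for 213 and below the 25 nM mean for 50. For the lower IDs it was above the 25 nM mean for 146, between the doses for 159 and below the 500 nM mean for 25. Among the 323 higher IDs with enough counts to pass the filter in the 6 libraries at 500 and 25 nM alone, the 200 nM mean lay between the doses for 217 (67.2%), above the 500 nM mean for 69 (21.4%) and below the 25 nM mean for 37. In the same 323 IDs the DMSO mean lay above the 500 nM mean for 89. Of the 304 lower IDs that passed the filter in the 6 libraries, the 200 nM mean lay between the doses for 249 (81.9%).

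The 3 libraries at 500 nM did not share 1 level for many of the higher IDs. Of the 490, 434 were at least 2-fold above the 25 nM mean in replicate 1, 306 in replicate 2 and 422 in replicate 3, and 219 were so in all 3. In 101 of the 490 IDs, replicate 2 did not exceed the highest library at 25 nM. For the 330 lower IDs the libraries were closer: 257, 293 and 273 were at least 2-fold below the 25 nM mean in replicates 1, 2 and 3, 192 in all 3, and in 3 IDs replicate 2 was not below the lowest library at 25 nM. Of the 157 IDs at least 8-fold higher, replicate 2 was at least 2-fold above the 25 nM mean in 62, replicate 1 in 156 and replicate 3 in 151.

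The 184 of the 490 IDs in which replicate 2 was under 2-fold were mostly IDs that were low at 25 nM. Of all IDs tested 20.3% had been called lower at 25 nM than in DMSO, and of the 184 it was 156 (84.8%). Their library medians over the 25 nM mean were 2.22, 0.26 and 1.85 in replicates 1, 2 and 3 at 500 nM, 3.01, 2.94 and 2.86 in DMSO, and 3.96, 3.92 and 3.45 at 200 nM. The choice of the 184 IDs held replicate 2 under 2-fold, so its place near the 25 nM level is partly set by the choice. Replicates 1 and 3 stood between the 25 nM and DMSO levels. The filter on low counts, which read all 12 libraries, favours high levels in DMSO and at 200 nM here. In the other 306 IDs the medians at 500 nM were 1.44, 1.51 and 1.45. The level of replicate 2 there is set by the choice, and in 87 of the 306 replicate 1 or 3 was under 2-fold. Of the 306, 160 (52.3%) had been called lower at 25 nM than in DMSO. This division was made after seeing the values and carries no test. Total counts were 39147729 in replicate 1, 21619433 in replicate 2 and 23181210 in replicate 3, and the part of depth in this difference was not tested.

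**Figure D3:**
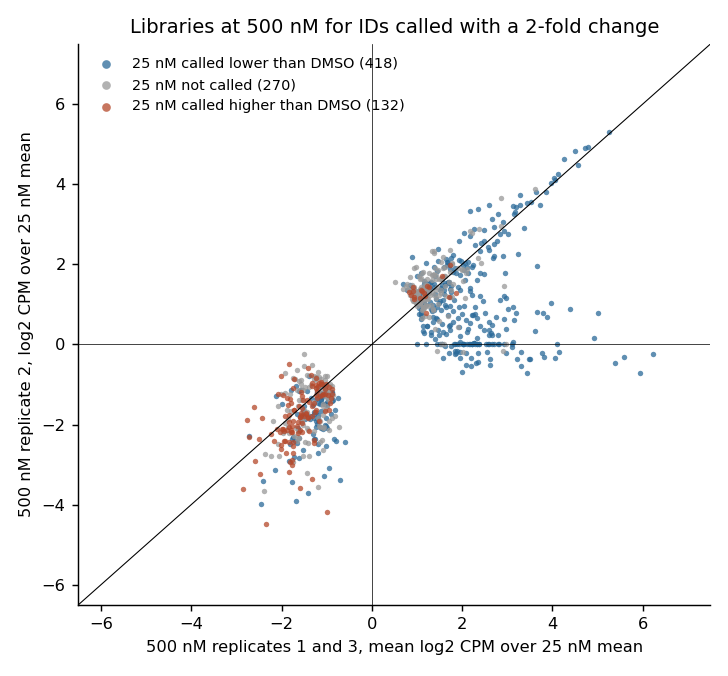
Log2 CPM over the mean of the 25 nM libraries in 500 nM replicate 2 (vertical axis) against the mean of replicates 1 and 3 (horizontal axis), for the 490 IDs at least 2-fold higher and the 330 at least 2-fold lower at 500 nM. Colours give the call of 25 nM against DMSO, and the line marks equal values. A part of the higher IDs, most of them low at 25 nM, lies along 0 in replicate 2.

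Counts of large differences moved with replicate 2 of 500 nM, and also with replicate 1, without which fewer IDs were higher, as given further on. The filter on low counts asks for fewer libraries when a group is smaller, so the sets of IDs tested differed too. They were 24959 IDs without replicate 2 and 26025 with replicate 2 alone, against 24454 with all libraries. Without replicate 2 of 500 nM, 561 IDs were at least 2-fold higher and 294 lower, and 219 and 14 were so at least 8-fold. With replicate 2 as the only library at 500 nM, and its spread assumed to be that of the other groups, 280 IDs were at least 2-fold higher and 378 lower. At 8-fold or more, that fit gave 64 and 55. In that fit lower IDs outnumbered higher ones at 2-fold and 4-fold but not at 8-fold. No other library at 500 nM was fitted alone. The reversal therefore cannot be told apart from an effect of fitting only 1 library, and it is not shown to be particular to replicate 2. The 2 fits shared 152 IDs at least 2-fold higher, which were 27.1% of the first list and 54.3% of the second, and 191 IDs at least 2-fold lower, 65.0% and 50.5%.

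**Figure D4:**
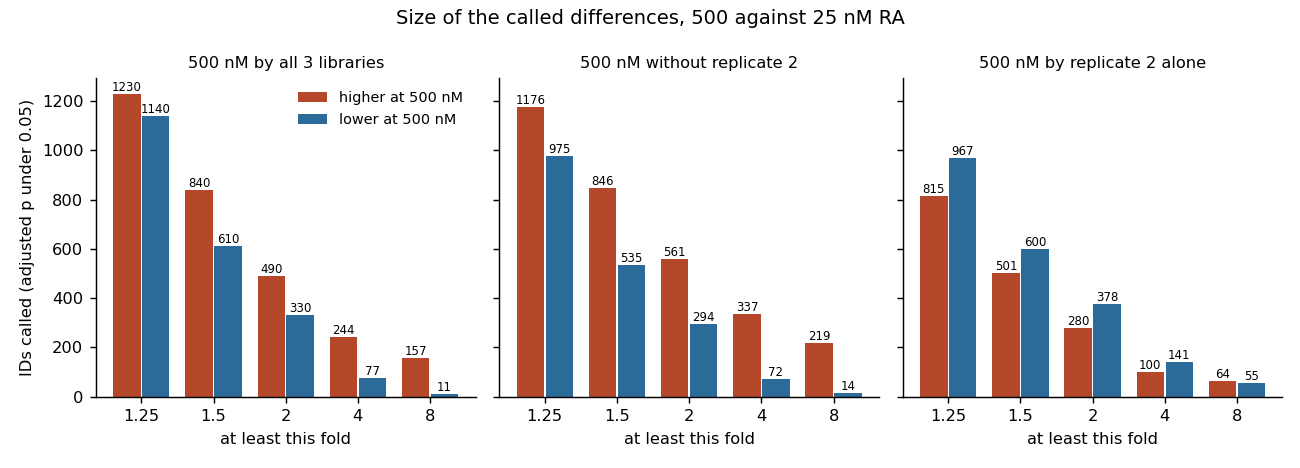
Number of IDs called higher or lower at 500 nM than at 25 nM RA (vertical axis) at or above each fold change (horizontal axis), with all 3 libraries at 500 nM, without replicate 2, and with replicate 2 alone. No other library at 500 nM was fitted alone. At 2-fold the counts are 490 and 330, 561 and 294, and 280 and 378.

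The 219 IDs at least 2-fold higher in every library at 500 nM were also described by themselves. Their choice sets replicate 2 at least 2-fold above the 25 nM mean, so the closeness of the 3 libraries at 500 nM is favoured by it. Over all IDs tested, 20.3% had been called lower and 19.6% higher at 25 nM than in DMSO. Of the 219, 133 (60.7%) had been called lower, and 49 had not been called at 25 nM but were above DMSO at 500 nM. A rise was continued in 10, and 27 were not called against DMSO at either dose. The library medians over the 25 nM mean were 1.73, 1.72 and 1.79 at 500 nM, 1.24, 1.24 and 1.36 in DMSO, and 1.09, 1.02 and 0.87 at 200 nM. The choice of these IDs favours low values at 25 nM, as does the filter, so their place below DMSO is a description. In the 6 libraries at 500 and 25 nM alone 181 of the 219 pass the filter, and 105 of these 181 had been called lower at 25 nM than in DMSO. Of the 192 IDs at least 2-fold lower in every library at 500 nM, 83 had been called higher at 25 nM and 59 lower. Another 42 had not been called at 25 nM but were below DMSO at 500 nM, and 8 were called against DMSO at neither dose.

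Some IDs were all but silent at 25 nM. At most 3 counts in every library at 25 nM were found for 288 IDs tested. Against 8.85% of all IDs tested, 144 of the 288 were called higher at 500 nM. These had passed the filter on low counts through other groups, so a difference from 25 nM is favoured. Their median counts were 18, 1 and 8 in replicates 1, 2 and 3 at 500 nM, 20, 15.5 and 22 in DMSO, and 35.5, 36 and 24 at 200 nM. More than 3 counts were found for 143 of them in replicate 1, for 35 in replicate 2 and for 124 in replicate 3. Only 6 of the 144 had at most 3 counts in all DMSO libraries, so nearly all had more than 3 counts in some DMSO library. The filter favours this too. In the other direction, 73 IDs tested had at most 3 counts in every library at 500 nM, having likewise passed the filter through other groups. Against 8.13% of all IDs tested, 17 of the 73 were called lower at 500 than at 25 nM. The 17 had median counts of 1 in each library at 500 nM and 13, 12 and 11 at 25 nM.

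The filter touched the larger differences too. Without the 200 nM group in filter and fit, 436 IDs were at least 2-fold higher and 320 lower, and 115 and 7 at least 8-fold. Fitted to those 6 libraries alone, edgeR called 335 IDs at least 2-fold higher and 304 lower, and 40 and 5 at least 8-fold.

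The IDs with the largest differences are given by their values. The rule asked for a call, at least 5 CPM on average in the higher group and 10 counts in the lower group, and no overlap between the 3 and 3 libraries, and it was met by 1462 higher and 1519 lower IDs. The 2 largest in each direction are named, and since they were chosen by the size of this difference, their size is partly a result of the choice. What these genes are is not stated in the sources used here.

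XBXL10_1g41031 stood at 20.3, 21.1 and 20.4 CPM at 500 nM, against 0.623, 0.124 and 0.981 CPM at 25 nM. All libraries at 500 nM were far above those at 25 nM, where it had 3 to 25 counts. The log2 fold change was 5.12 (SE 0.306), with an edgeR adjusted p of 1.68e-13. In DMSO it stood at 25.8, 24.3 and 24.0 CPM, and at 200 nM at 5.30, 3.62 and 4.11 CPM. At 25 nM this ID was far below DMSO, with a log2 fold change of -5.39 (SE 0.306, edgeR adjusted p 1.08e-14), while at 500 nM the difference from DMSO was -0.26 (SE 0.121) with an edgeR adjusted p of 0.0829.

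XBXL10_1g41018 followed the same order of groups. It stood at 14.1, 16.4 and 15.8 CPM at 500 nM, against 0.415, 0.747 and 0.314 CPM at 25 nM, a log2 fold change of 4.97 (SE 0.264) with an edgeR adjusted p of 8.17e-26. In DMSO it stood at 34.1, 32.3 and 33.9 CPM, and at 200 nM at 6.24, 5.27 and 3.92 CPM. At 500 nM it was still lower than in DMSO, by a log2 fold change of -1.13 (SE 0.0943), with an edgeR adjusted p of 6.33e-14. For both IDs replicate 2 at 500 nM lay with replicates 1 and 3.

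XBXL10_1g44103 stood at 3.63, 2.04 and 3.36 CPM at 500 nM, against 23.1, 30.0 and 24.9 CPM at 25 nM. It had a log2 fold change of -3.06 (SE 0.290), an edgeR adjusted p of 6.17e-05 and no overlap of the groups. In DMSO it stood at 2.17, 3.40 and 2.03 CPM, and at 200 nM at 10.4, 9.91 and 16.5 CPM. The ID was higher at 25 nM than in DMSO, by a log2 fold change of 3.39 (SE 0.328, edgeR adjusted p 1.56e-05), and at 500 nM its difference from DMSO was 0.33 (SE 0.384), with an edgeR adjusted p of 0.539.

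XBXL10_1g27566 was the ID among these 4 whose mean was lower at each higher dose. In DMSO it stood at 69.1, 70.8 and 72.5 CPM, at 25 nM at 30.3, 31.9 and 28.5 CPM, at 200 nM at 20.3, 19.4 and 22.6 CPM, and at 500 nM at 6.57, 2.78 and 4.84 CPM. The log2 fold change of 500 over 25 nM was -2.59 (SE 0.202), with an edgeR adjusted p of 1.32e-05. For 25 nM against DMSO it was -1.23 (SE 0.136), with an edgeR adjusted p of 8.15e-05. The group means were 4.73 ± 1.89 CPM at 500 nM and 30.2 ± 1.69 CPM at 25 nM (SD, n = 3 each).

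**Figure D5:**
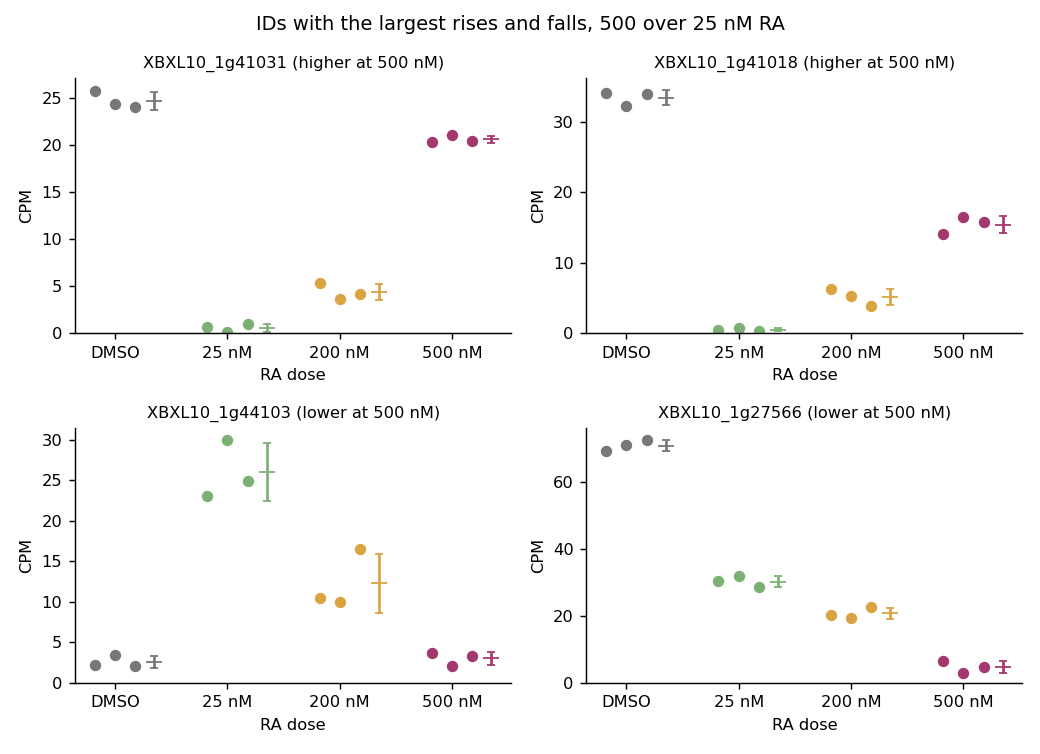
CPM (vertical axis) of 4 IDs in each library by RA dose (horizontal axis). Points are the replicates 1, 2 and 3 from left to right, and bars beside them give the mean and SD of the 3. The 2 IDs in the upper row are lowest at 25 nM and near 20 or 15 CPM at 500 nM, and the lower row shows an ID that is highest at 25 nM and one with a lower mean at each higher dose.

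The next IDs by the same rule were like the 4 named ones in some respects and unlike them in others. Of the 20 IDs with the largest rises, with log2 fold changes of 2.02 to 5.12, 19 had been called lower at 25 nM than in DMSO and 1 had not been called. Over all IDs tested, 20.3% were called lower and 19.6% higher at 25 nM than in DMSO. The ranking shares the 25 nM libraries with that comparison. It therefore favours low values at 25 nM among the rises and high ones among the falls. At 500 nM, 11 of the 20 IDs with the largest rises were lower than DMSO, 6 were higher and 3 were not called against it. Over all IDs tested, 22.6% were lower and 22.3% higher at 500 nM than in DMSO. At least a 2-fold rise was seen in all 3 libraries for 19 of the 20. Of the 20 IDs with the largest falls, of 1.94 to 3.06 in absolute log2 fold change, 13 had been called higher at 25 nM than in DMSO, 6 lower and 1 not at all, and at 500 nM 18 were lower than DMSO and 2 were not called against it. XBXL10_1g44103 was 1 of these 2.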

How the data were processed

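RNA-seq libraries were made from pools of explants with a kit that keeps the strand, per the labels' protocols. The authors deposited expected counts per gene ID, already whole numbers, and TPM for the same IDs. RSEM 1.3.0 and Bowtie2 are named in the submitters' processing notes. Neither genome build nor annotation is given in the sources used here. Counts of near-identical gene copies are estimates, because RSEM divides reads between them.

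From the counts, 1 row that names no gene (count 0) was left out. IDs were kept by filterByExpr (minimum count 10) and scaled by TMM, and a robust quasi-likelihood model with 4 group means was fitted to all 12 libraries in edgeR 4.0.16 (R 4.3.3). Calls needed an adjusted p under 0.05 (Benjamini-Hochberg, all 24454 IDs). Log2 CPM used a prior count of 2. SEs came from the fitted information and the quasi-likelihood dispersion, with counting error as the lower bound. The steps were also run on simulated counts in which all libraries of a group shared 1 mean. Changes were set only in IDs above 1 CPM at 25 nM. That run cannot speak to a library that stands apart, such as 500 nM replicate 2, or to changes in rarer IDs. DESeq2 1.42.0, limma 3.58.1 and other settings were tried as alternatives. Among them was voom with sample quality weights, where 500 nM replicate 1 had the lowest weight of the 12 libraries. Its weight was 0.667, against 0.820 for replicate 2 and 1.44 for replicate 3. No replicate pair at 500 or 25 nM agreed within sampling noise (chi-square 2.90 to 50.7 per degree of freedom), so each library counted once. The 50.7 was between 25 nM replicates 1 and 3. At 500 nM the values were 28.6 for replicates 1 and 2, 26.3 for 2 and 3, and 2.90 for 1 and 3. The comparison, lists and rule for named IDs were chosen with earlier results of these data known; 23 gene lists could not be run without gene names.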

Additional observations from a re-analysis of the deposited data

How the results depend on the processing

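DESeq2 size factors, upper-quartile factors, DESeq2 itself, the replicate block and thinning to equal depth left all counts within 1.5 times those reported; DESeq2 called 3613 IDs, the block 4131 and thinning 3508. All 100 alternative log2 fold changes of the 4 named IDs kept their direction and stayed called. Limma on TPM gave fewer calls. With log2(TPM + 1) there were 2104 IDs, 693 higher and 1411 lower; at least 2-fold 157, 51 higher and 106 lower; at least 8-fold 12 higher and 1 lower. With log2(TPM + 0.1) these were 2155 and 699 higher, then 437 and 185 higher, then 27 and 4. Without a filter they were 1766, 619 and 1147, then 154, 50 and 104, then 12 and 1. Higher IDs were 32.9% of those called with log2(TPM + 1) against 52.1% in edgeR; after TMM scaling of TPM, added after seeing the data, they were 51.9%, with 2306 called, 1197 higher and 1109 lower, 157 at least 2-fold (59 higher, 98 lower) and 12 and 1 at least 8-fold, so the share moved back with the scaling. Why TPM gave fewer calls was not tested.

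The at least 8-fold counts were the least stable. Lower IDs numbered 48 with no filter, 4 with a filter of 1 CPM, 5 in the 6 libraries alone and 7 without the 200 nM group; higher IDs numbered 40 in the 6 libraries alone and 91 by voom with sample quality weights. A test against 1.2-fold called 1172 IDs. In the counts that follow, a move back towards DMSO is a step opposite to that of 25 nM, which can also pass the DMSO level. With all libraries, 61 of the 611 IDs that moved back up were called above DMSO at 500 nM. Of the 431 that moved back down, 57 were called below it. With 500 nM by replicate 2 alone, chosen after seeing the data, there were 2702 IDs called (1346 higher), 280 higher by 2-fold or more, 64 higher and 55 lower by 8-fold or more, 285 IDs higher and 234 lower that moved back towards DMSO, 316 higher and 346 lower called at 500 nM but not 25 nM, 134 IDs at least 2-fold higher that were below DMSO at 25 nM, and 162 at least 2-fold lower that were already lower at 25 nM. Leaving out each library at 500 nM, 25 nM or DMSO in turn gave 3140 to 4105 IDs called, 371 to 561 higher and 294 to 346 lower by 2-fold or more, 94 to 219 higher and 9 to 20 lower by 8-fold or more, and 209 to 423 at least 2-fold higher that were below DMSO at 25 nM. The lowest of these, 94 and 209, came without 500 nM replicate 1, which also gave 20 IDs at least 8-fold lower, and the highest, 219 and 423, without replicate 2.

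Same-numbered libraries at 500 and 25 nM had deviations that correlated at -0.02, -0.01 and 0.03, and 1 of 3 correlated best with its own number, so the replicate numbers were not used as pairs. With the replicate block, 448 IDs were at least 2-fold higher and 322 lower. Low counts make the size of large differences uncertain. Of the 490 IDs at least 2-fold higher, 167 had too few counts at 500 and 25 nM to pass the filter there. Without gene symbols, the gene lists gave no values.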

Other observations

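The spread between libraries, as the median SD of log2 CPM within a group, was 0.12 at 500 nM and 0.12 at 25 nM over all IDs tested. For the 330 IDs at least 2-fold lower at 500 nM it was 0.38 at 500 nM and 0.22 at 25 nM. For the 490 IDs at least 2-fold higher it was 0.38 and 0.34. The 330 IDs had a median level of 1.85 CPM over the 12 libraries and were chosen to have fewer counts at 500 nM. The part of low counts in their spread was not tested.

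Transcript length, read as counts over TPM with the median ID of a library set to 1, differed between the called groups. The median was 0.96 among the 2164 IDs higher at 500 nM and 1.18 among the 1988 lower IDs, against 1.01 over all IDs tested. Among at least 2-fold differences it was 1.02 for both directions. A part of length in these calls was not tested.

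The 32 IDs with identical counts in all 12 libraries, in 11 sets, held 2.28% to 6.61% of counts at 500 nM and 2.88% to 9.15% at 25 nM. In edgeR 0 of them were called between the doses, and 0 had an unadjusted p under 0.05; in DESeq2 0 were called.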
